A study of Mus musculus with 12 samples.

Results

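The 7 genes described here encode the class II antigen presentation machinery of the mouse: Cd74, H2-Aa, H2-Ab1, H2-Eb1, H2-DMa, H2-DMb1 and Ciita. They were taken as a named list, and the probe set of each was selected on measured values: among probe sets with that single gene symbol, the one with the highest mean log2 expression over the 12 arrays. On this rule 6 of the 7 were measured, out of 18193 genes with such a probe set, and 4 of them passed the filter on low values and were tested. H2-DMb1 was the gene without a value, because the 2 probe sets that carry its symbol also carry H2-DMb2. As a description, that mean was 7.53 for the chosen H2-Aa probe set and 6.98 for the next, 6.37 and 4.55 for H2-Ab1, 3.38 and 2.302 for H2-DMa, and 2.34 and 2.31 for Ciita.

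The study measured RNA of kidney proximal tubules, isolated by Percoll centrifugation, from mice aged 20 weeks on a normal diet, with 1 Affymetrix array per sample and 3 samples in each of 4 groups. The groups are dB/dB catalase-Tg mice, which are dB/dB mice with a catalase transgene, then dB/dB mice, catalase-Tg mice without the dB/dB genotype, and wild-type mice. As background known from work on such mice, and not from the labels, the dB/dB genotype disables the leptin receptor and leads to obesity and diabetes, and the transgene is a rat catalase driven in proximal tubule cells by the androgen-responsive Kap promoter. The labels give no strain, no sex and no statement that the 3 samples of a group came from separate animals, so a p-value here weighs a difference against sample-to-sample spread that may be technical.

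Class II molecules are pairs of an alpha and a beta chain that carry peptides from the endosomes to the cell surface, where CD4+ T cells read them. Dendritic cells, B cells and macrophages make them all the time, while many other cells, tubule epithelium among them, are known to make them under interferon gamma through the coactivator CIITA. In the kidney they are known mainly from the interstitial dendritic cells and macrophages that lie between the tubules, and from inflamed tubules. CIITA binds no DNA itself but sits on a complex of RFX, NF-Y and CREB proteins at paired X and Y boxes upstream of the class II genes.

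Of the 7 genes, 4 had an entry in the RefSeq promoter table (GRCm38.p6): H2-Aa, H2-Eb1, H2-DMa with 2 entries, and H2-DMb1. The stretches below are shown because they hold the paired boxes that class II genes are known for, in the 250 bases upstream of the start. Each stretch is written 5′ to 3′ along the strand of its gene, and the capitals mark GNAAC, the core of the X box, and GATTGG, the inverted CCAAT of the Y box.

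H2-Aa, chr17:34287859-34287912, minus strand: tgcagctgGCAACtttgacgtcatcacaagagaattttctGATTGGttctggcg

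H2-Eb1, chr17:34305768-34305820, plus strand: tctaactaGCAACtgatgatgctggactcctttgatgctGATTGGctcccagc

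H2-DMb1, chr17:34153089-34153142, plus strand: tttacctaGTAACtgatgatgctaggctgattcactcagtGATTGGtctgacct

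The motifs lie 27, 26 and 27 bases apart in H2-Aa, H2-Eb1 and H2-DMb1, and their Y box ends 43, 54 and 56 bases before the start. The search took both strands and any GNAAC followed, after 20 to 30 bases, by GATTGG; the letters were chosen with knowledge of class II promoters, so the matches are a description. The pair is found in 181 of 32851 upstream windows, or 0.551%, while GNAAC alone is in 79.6% and GATTGG alone in 14.6%. Neither H2-DMa entry holds the pair in these letters, which says nothing about what binds there. Among the 14 other genes of the class II pathway taken as a list, 11 had an entry and 3 held the pair, and these are shown because 2 of them, H2-Oa and H2-Ob, encode the chains of the H2-O protein that restrains peptide loading.

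H2-Oa, chr17:34092295-34092348, plus strand: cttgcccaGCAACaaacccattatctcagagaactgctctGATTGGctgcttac

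H2-Ob, chr17:34238810-34238860, plus strand: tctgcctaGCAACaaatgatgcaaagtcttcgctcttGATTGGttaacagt

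H2-Eb2, chr17:34325535-34325587, plus strand: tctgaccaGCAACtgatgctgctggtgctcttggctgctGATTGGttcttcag

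H2-Oa, H2-Ob and H2-Eb2 were never above 4 on any array, while H2-Aa and H2-Eb1, whose windows hold the same pair, were.

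Some arrays stand apart and touch the results below. The array weights estimated by limma were lowest on dB/dB catalase-Tg 1 (0.172), wild type 1 (0.227) and catalase-Tg 1 (0.287). Their estimation stopped before its convergence tolerance. Over all probe sets, dB/dB catalase-Tg 1 correlated better with the dB/dB arrays (mean r = 0.983) than with the other arrays of its own group (0.961), and wild type 1 did likewise (0.987 against 0.955). This does not single them out. Wild type 2 and 3 were closer to catalase-Tg (0.984 and 0.983) than to their own group (0.963 and 0.976). So were dB/dB catalase-Tg 2 and 3 (0.985 and 0.984, against 0.978 for each in their own group). Wild type 2 had Xist at 11.91 with Eif2s3y at 2.302, and wild type 3 had both, at 6.72 and 7.89. The other arrays had Xist between 2.31 and 2.67 and Eif2s3y between 7.88 and 8.93. Comparisons with wild type thus set groups that were alike in these sex-linked messages against a group that was mixed in them. The 2 mouse Cat probe sets did not separate the transgenic groups, at 11.43 to 12.90 in dB/dB catalase-Tg and 11.39 to 12.56 in dB/dB tubules, and 11.45 to 12.44 in catalase-Tg and 10.24 to 12.68 in wild-type tubules; a rat transgene need not hybridise to them. The labelled tissue was present on every array: all 14 proximal tubule markers passed the filter, and Slc34a1, its sodium phosphate cotransporter, was between 12.84 and 14.07. From 36.9% to 38.5% of probe sets were above 4 on each array, and no array's median lay outside 2.63 to 2.82.

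Cd74 encodes the invariant chain, which holds new class II molecules together, blocks their groove and takes them to the endosome. Its log2 expression was 12.39, 7.67 and 5.99 in dB/dB catalase-Tg tubules, 6.38, 8.59 and 6.04 in dB/dB tubules, 6.40, 5.29 and 5.06 in catalase-Tg tubules, and 6.91, 6.88 and 6.88 in wild-type tubules. One dB/dB catalase-Tg array was far above the other 11, and the 3 wild-type arrays lay within 0.1 of each other inside the range of the dB/dB values. The means were 8.68 ± 3.32 in dB/dB catalase-Tg, 7.0 ± 1.38 in dB/dB, 5.58 ± 0.72 in catalase-Tg and 6.89 ± 0.016 in wild type (SD, n = 3 each). In tissue RNA, more cells of a type and more RNA per cell cannot be told apart, here and for each gene below.

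H2-Aa encodes the alpha chain of the I-A molecule, the class II molecule of mice that corresponds to human HLA-DQ. It measured 12.75, 8.02 and 6.77 in dB/dB catalase-Tg tubules, 7.39, 9.02 and 6.56 in dB/dB tubules, 6.83, 5.57 and 5.23 in catalase-Tg tubules, and 7.69, 7.02 and 7.45 in wild-type tubules. The catalase-Tg arrays were all below the wild-type arrays, and the dB/dB catalase-Tg and dB/dB arrays overlapped both each other and wild type. The means were 9.18 ± 3.15 in dB/dB catalase-Tg, 7.66 ± 1.25 in dB/dB, 5.88 ± 0.84 in catalase-Tg and 7.39 ± 0.34 in wild type (SD, n = 3 each).

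H2-Ab1 encodes the beta chain that pairs with H2-Aa. It measured 11.79, 6.59 and 5.64 in dB/dB catalase-Tg tubules, 5.40, 7.77 and 5.24 in dB/dB tubules, 5.65, 4.78 and 4.73 in catalase-Tg tubules, and 6.40, 6.50 and 5.99 in wild-type tubules. The same dB/dB catalase-Tg array was high, and dB/dB 2 was again the next. Its means were 8.0 ± 3.31 in dB/dB catalase-Tg, 6.14 ± 1.42 in dB/dB, 5.05 ± 0.52 in catalase-Tg and 6.30 ± 0.27 in wild type (SD, n = 3 each).

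H2-Eb1 encodes the beta chain of the I-E molecule, the counterpart of human HLA-DR. It measured 9.20, 6.05 and 4.72 in dB/dB catalase-Tg tubules, 5.37, 6.66 and 4.60 in dB/dB tubules, 3.08, 2.91 and 3.41 in catalase-Tg tubules, and 5.07, 4.46 and 5.03 in wild-type tubules. Every catalase-Tg array was below 4 and below every array of the other 3 groups. Its means were 6.66 ± 2.3 in dB/dB catalase-Tg, 5.54 ± 1.04 in dB/dB, 3.13 ± 0.25 in catalase-Tg and 4.85 ± 0.34 in wild type (SD, n = 3 each). H2-Ea, which encodes the alpha chain of I-E and was added after its values were seen, had 3 probe sets, none above 4 on any array; its highest value was 3.56, on dB/dB catalase-Tg 1.

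H2-DMa encodes the alpha chain of the H2-DM protein, which removes the remnant of the invariant chain so that peptide can bind. It measured 6.81, 3.41 and 3.00 in dB/dB catalase-Tg tubules, 2.77, 3.48 and 2.80 in dB/dB tubules, 2.49, 2.95 and 3.01 in catalase-Tg tubules, and 2.95, 3.35 and 3.56 in wild-type tubules. It was above 4 on dB/dB catalase-Tg 1 alone, so it did not pass the filter and was not tested with the others. Fitted without a filter, its dB/dB catalase-Tg mean was 1.39 above its dB/dB mean (SE 0.86, limma adjusted p = 0.759).

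Ciita encodes the coactivator that class II transcription needs. Its probe set lay at 2.302, the lowest value of the arrays when rounded to 3 decimals, on 11 arrays and at 2.71 on wild type 2, and its other probe sets were never above 4 either. A value at the floor has no order and gives no bound on the message in the tubules, so Ciita could not be compared between groups.

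**Figure D1:**
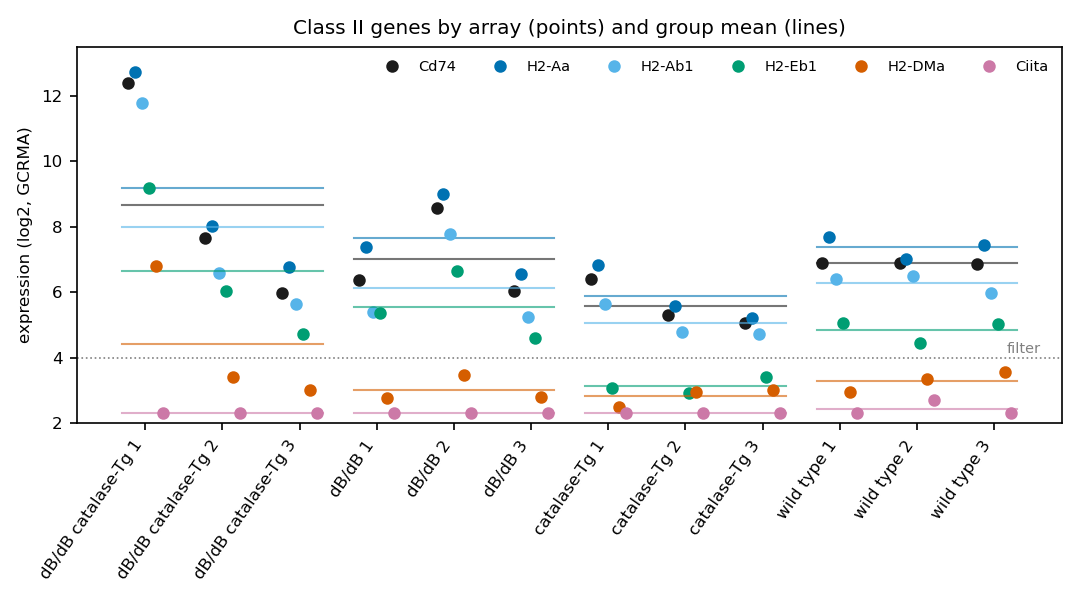
Log2 expression (GCRMA) of the 6 measured class II genes on each of the 12 arrays; points are arrays, lines are group means, and the dotted line is the filter at 4. The first dB/dB catalase-Tg array stands above the other 11 for every gene except Ciita, which lies at the floor; heights of different genes come from different probe sets and are not to be compared.

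The order of the group means was the same for Cd74, H2-Aa and H2-Eb1, with dB/dB catalase-Tg first, then dB/dB, wild type and catalase-Tg; for H2-Ab1 the wild-type mean (6.30) was above the dB/dB mean (6.14). On the second H2-Ab1 probe set that passed the filter, the dB/dB mean was instead 0.14 above the wild-type mean. On the chosen probe sets, neighbours in the order of means overlapped, except wild type and catalase-Tg for Cd74, H2-Aa and H2-Eb1, which did not. For all 4 tested genes the highest array was dB/dB catalase-Tg 1, the second dB/dB 2 and the third dB/dB catalase-Tg 2. The lowest was catalase-Tg 3 for Cd74, H2-Aa and H2-Ab1 and catalase-Tg 2 for H2-Eb1.

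The gap between dB/dB catalase-Tg 1 and the second array was 14.0-fold for Cd74, 13.3-fold for H2-Aa, 16.2-fold for H2-Ab1 and 5.84-fold for H2-Eb1. H2-DMa, at 6.81 on that array, lay between 2.49 and 3.56 on the other 11, all under the filter, so no fold is given for it. Over the other 11 arrays Cd74 ranged from 5.06 to 8.59, H2-Aa from 5.23 to 9.02, H2-Ab1 from 4.73 to 7.77 and H2-Eb1 from 2.91 to 6.66. The gap above the second array, 3.80 for Cd74 and 4.02 for H2-Ab1 on the log2 scale, was wider than the whole span of the other 11 arrays (3.53 and 3.04); for H2-Aa (3.73 against 3.79) and H2-Eb1 (2.55 against 3.75) it was not.

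To place this gap among the other messages, each array was set against the highest of the other 11 for all 45037 probe sets. On dB/dB catalase-Tg 1 the 9 probe sets with the widest gap were all of the class II list: H2-Ab1 with 4.64, 4.02 and 3.85, H2-Aa with 3.97, 3.94, 3.73 and 3.57, Cd74 with 3.80 and H2-DMa with 3.25 on the log2 scale. For 3 of the 9, the H2-Ab1 set with 4.64, the H2-Aa set with 3.94 and H2-DMa, all other arrays were under 4, so their gap is measured from low values. H2-Eb1 was at rank 13 with 2.55. On each of the other 11 arrays none of the 14 probe sets of the list was in the top 20. In all, 209 probe sets stood over 1 above the other arrays on dB/dB catalase-Tg 1, against 5 to 99 on each of the others. Those over 3 numbered 9 on dB/dB catalase-Tg 1, 1 on dB/dB catalase-Tg 3 and 8 on wild type 2, whose widest gap was Xist with 6.21, and there were none on the other arrays.

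The probe sets that followed on that array, named for this ranking after their values were seen, were Psmb8 (2.96), a subunit of the immunoproteasome, Ubd (2.698), a ubiquitin-like protein induced by interferon gamma, H2-DMb2 (2.61), the second gene for the H2-DM beta chain, H2-K1 (2.45), a class I heavy chain, and Irf7 (2.35), a transcription factor of the interferon response. H2-DMb2 was 6.43 on dB/dB catalase-Tg 1 and 2.95 to 3.82 on the other arrays. The 9 class II probe sets at the top read 4 genes, so they are not separate observations.

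**Figure D2:**
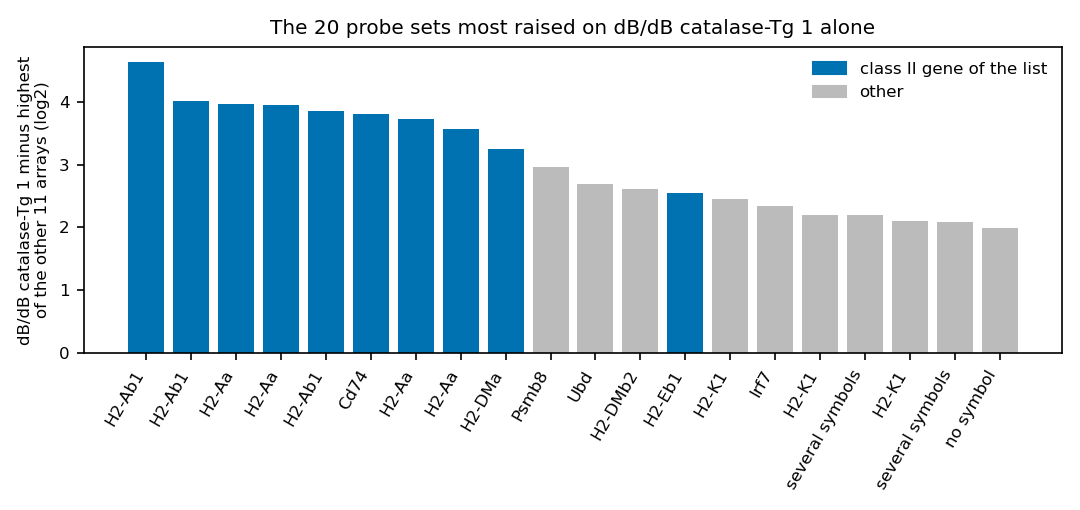
The 20 probe sets with the widest gap (log2) between dB/dB catalase-Tg 1 and the highest of the other 11 arrays, one bar each, class II genes of the list in blue and all others in grey. The first 9 bars, from 4.64 to 3.25, are all class II genes, and H2-Eb1 stands at rank 13 with 2.55.

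One question of the design is what the catalase transgene does in dB/dB mice. Cd74, H2-Aa, H2-Ab1 and H2-Eb1 had log2 means 1.68, 1.53, 1.87 and 1.11 higher in tubules of dB/dB catalase-Tg mice than of dB/dB mice, with SE of 1.32, 1.26, 1.31 and 0.93. None passed limma's moderated test (Benjamini-Hochberg adjusted p = 0.667, 0.681, 0.646 and 0.681, threshold 0.05), and over all probe sets 0.00551% were called. The 95% interval for Cd74 ran from -1.25 to 4.61, so it holds changes in either direction. The groups overlapped for all 4 genes, where 4.87% of all probe sets were higher and 11.1% lower without overlap, and none of the 4 had an unadjusted p under 0.05, where 7.5% did. Without dB/dB catalase-Tg 1 the same differences were -0.17, -0.26, -0.025 and -0.16, which turned the direction of all 4.

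Between the transgenic groups, Cd74, H2-Aa, H2-Ab1 and H2-Eb1 were 3.10, 3.31, 2.95 and 3.53 higher in dB/dB catalase-Tg than in catalase-Tg tubules. Their unadjusted p were 0.0401, 0.0252, 0.0478 and 0.00326, so 4 of 4 were under 0.05, where 6.86% of all probe sets were. After adjustment none was called (limma adjusted p = 0.704, 0.700, 0.725 and 0.541), where 0.0276% of all probe sets were called. H2-Eb1 alone did not overlap, at 4.72 to 9.20 in dB/dB catalase-Tg and 2.91 to 3.41 in catalase-Tg tubules, and 6.67% of all probe sets were higher and 9.35% lower without overlap. Without dB/dB catalase-Tg 1 the differences were 1.25, 1.52, 1.06 and 2.25, with unadjusted p of 0.133, 0.0611, 0.158 and 0.00297; H2-Eb1 thus kept its direction and an unadjusted p under 0.05, with an adjusted p of 0.655.

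In mice without the dB/dB genotype, Cd74, H2-Aa, H2-Ab1 and H2-Eb1 differed by -1.31, -1.51, -1.24 and -1.72 between catalase-Tg and wild-type tubules (SE 1.32, 1.26, 1.31 and 0.93). None was called, with limma adjusted p of 0.769, 0.724, 0.778 and 0.593, where 0.022% of all probe sets were. On the chosen probe sets all 4 lay lower in every catalase-Tg array than in every wild-type array. Of all probe sets 7.8% were lower and 5.74% higher without overlap. The other H2-Aa probe sets that passed the filter did not overlap either. The second H2-Ab1 probe set that passed did, at 3.27 to 4.04 in catalase-Tg and 3.46 to 4.50 in wild-type tubules. Its difference was -0.61 (limma adjusted p = 0.912). With all 12 arrays none of the 4 genes had an unadjusted p under 0.05 on the chosen probe sets, where 9.15% of all did. The SE rests on a spread shared by the 4 groups. Without dB/dB catalase-Tg 1, which belongs to neither group, the SE fell to 0.68, 0.64, 0.62 and 0.51 while the differences stayed as they were, and the adjusted p were 0.486, 0.447, 0.476 and 0.407. The statement on unadjusted p above is for the fit of all 12 arrays, with its wider SE. Without that array it did not hold for H2-Eb1, at -1.72 with an SE of 0.51, and need not hold for the other genes.

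Between dB/dB and wild-type tubules no class II gene was called. The dB/dB mean minus the wild-type mean was 0.11 for Cd74, 0.27 for H2-Aa, -0.16 for H2-Ab1 and 0.69 for H2-Eb1, with limma adjusted p of 0.977, 0.944, 0.967 and 0.802 and no probe set of the whole table called (0%). The 95% interval for H2-Aa ran from -2.54 to 3.07, so it holds changes of several-fold in either direction. The groups overlapped for all 4 genes, where 2.52% of all probe sets were higher and 8.91% lower without overlap, and none of the 4 had an unadjusted p under 0.05, where 4.16% did. The dB/dB means rest on dB/dB 2. Without it, Cd74, H2-Aa and H2-Ab1 differed by -0.68, -0.41 and -0.98, and H2-Eb1 by 0.13.

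Between dB/dB catalase-Tg and wild-type tubules, Cd74, H2-Aa, H2-Ab1 and H2-Eb1 were 1.79, 1.79, 1.71 and 1.80 higher, with an adjusted p of 1 for each and 0.00551% of all probe sets called. The groups overlapped for all 4, where 0.942% of all probe sets were higher and 7.1% lower without overlap, and none had an unadjusted p under 0.05, where 3.46% did. Without dB/dB catalase-Tg 1 these were -0.060, 0.011, -0.18 and 0.53. The interaction, which asks if the transgene's difference is larger in dB/dB than in other mice, was 2.99, 3.04, 3.11 and 2.84 (SE 1.87, 1.79, 1.86 and 1.31). None was called (limma adjusted p = 1.00), where 0.00551% of all probe sets were, and none had an unadjusted p under 0.05, where 1.64% did. Without dB/dB catalase-Tg 1 it was 1.13, 1.26, 1.22 and 1.56. A moderated F test of any difference among the 4 groups gave adjusted p of 0.560, 0.502, 0.580 and 0.336, where 0.0386% of all probe sets were called. In that test H2-Eb1 alone of the 4 had an unadjusted p under 0.05 (0.0207), where 12.6% of all probe sets did.

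Set beside all tested probe sets, the median difference of the 4 genes was 1.60 in dB/dB catalase-Tg against dB/dB, where that of all probe sets was -0.016. It was 3.20 against -0.099 between the transgenic groups, 1.79 against -0.12 for dB/dB catalase-Tg and wild type, 0.19 against -0.11 for dB/dB and wild type, and -1.41 against -0.023 for catalase-Tg and wild type. The comparisons share groups, so these medians are not separate observations. Without dB/dB catalase-Tg 1, the median of the 4 genes in dB/dB catalase-Tg was -0.17 against dB/dB, 1.38 against catalase-Tg and -0.025 against wild type. Read from a second probe set, H2-Aa was 1.54 or 1.81 and H2-Ab1 1.96 higher in dB/dB catalase-Tg than in dB/dB tubules, close to the values from the chosen ones. These probe sets read the same genes on the same arrays, dB/dB catalase-Tg 1 included, so their closeness is no separate check of the difference.

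**Figure D3:**
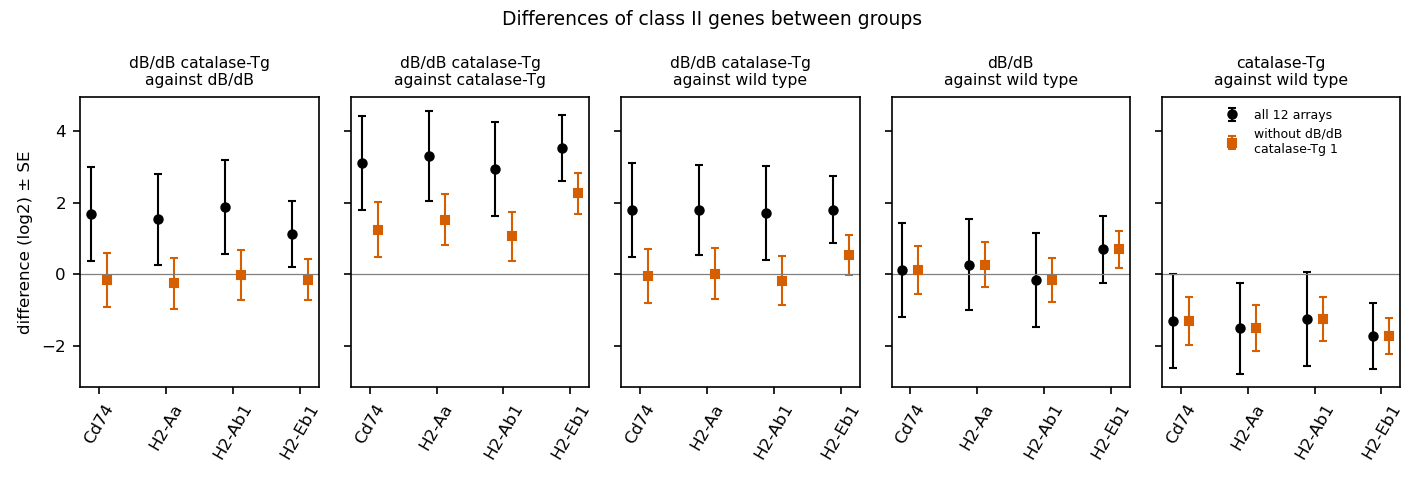
Differences (log2, first group minus second) of Cd74, H2-Aa, H2-Ab1 and H2-Eb1 in the 5 comparisons, with SE as bars, from all 12 arrays in black and without dB/dB catalase-Tg 1 in orange. Against dB/dB the 4 black points lie between 1.11 and 1.87 and the orange ones between -0.26 and -0.025; none of the differences passed the adjusted test.

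The tested class II genes moved together from array to array. Over the 12 arrays Pearson's r between pairs of them was 0.907 to 0.991 and Spearman's rho 0.734 to 0.972. Without dB/dB catalase-Tg 1, over 11 arrays, r was 0.785 to 0.968 and rho 0.655 to 0.964. The 12-array values rest in part on that array, and arrays share their groups, so both are a description.

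Of 9740 genes, those whose profile was most like the mean of the 4 class II genes over the 12 arrays were Psmb9 (r = 0.953), Tap1 (0.946), B2m (0.936), H2-K1 (0.933), Nop14 (0.923), Tap2 (0.923), H2-D1 (0.921) and Psmb8 (0.921). Psmb8 and Psmb9 are subunits of the immunoproteasome, Tap1 and Tap2 form the peptide transporter of class I loading, B2m is the light chain of class I, H2-K1 and H2-D1 are class I heavy chains, and Nop14 is a ribosome assembly factor. Over 11 arrays, without dB/dB catalase-Tg 1, the r of Psmb9 was 0.886, still at rank 1, and that of Psmb8 was 0.691, at rank 65.

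Psmb9 measured 7.33, 4.38 and 3.83 in dB/dB catalase-Tg tubules, 4.94, 5.85 and 4.26 in dB/dB tubules, 3.71, 3.41 and 3.50 in catalase-Tg tubules, and 4.92, 4.71 and 4.38 in wild-type tubules. It was highest on dB/dB catalase-Tg 1 and next on dB/dB 2, as were the 4 tested class II genes. Its 3 lowest values were those of the catalase-Tg arrays, as for H2-Eb1; for Cd74, H2-Aa and H2-Ab1, catalase-Tg 1 lay above some arrays of the dB/dB catalase-Tg and dB/dB groups. B2m measured 14.30, 12.27 and 11.72 in dB/dB catalase-Tg tubules, 12.09, 13.18 and 12.01 in dB/dB tubules, 12.27, 11.44 and 11.82 in catalase-Tg tubules, and 12.26, 12.66 and 11.87 in wild-type tubules. Its catalase-Tg values overlapped those of wild type, unlike those of the 4 tested class II genes on their chosen probe sets.

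A list of interferon gamma response and class I genes had 20 of 21 members measured and 15 tested, and 12 of the 15 were highest on dB/dB catalase-Tg 1. The share of all probe sets highest on that array was not counted, for this list or those below. None of the 15 was called by limma in any comparison, and at most 1 had an unadjusted p under 0.05 in any of them. Of all probe sets, 1.64% to 12.6% had such a p, by comparison. In dB/dB catalase-Tg against catalase-Tg all 15 differences were above 0 with a median of 1.06, where the median of all probe sets was -0.099. In catalase-Tg against wild type all 15 were below 0 with a median of -0.74, where that of all probe sets was -0.023. Several lists of cell type markers, described below, did likewise. None of 12 endothelial, 6 podocyte, 8 loop of Henle and distal tubule, 6 fibroblast and mural or 7 pan-leukocyte genes was above 0. Between the transgenic groups all of these were, as were 4 of 14 proximal tubule genes. In catalase-Tg against wild type 13 of 14 proximal tubule, 2 of 5 collecting duct and 1 of 1 B cell genes were above 0. When dB/dB catalase-Tg 1 was left out, 11 of the 15 differences between the transgenic groups were above 0 and their median was 0.12. Relative to dB/dB tubules, 9 of the 15 had a higher dB/dB catalase-Tg mean on all arrays, with a median difference of 0.16. Once dB/dB catalase-Tg 1 was dropped, 1 of the 15 was higher and the median was -0.85. Relative to wild-type tubules, 8 were higher (median 0.15) with this array and 1 (median -0.54) without it. Ifng itself, Ifngr2, Cxcl9, Socs1 and Nlrc5 were never above 4, and Nlrc5, the class I counterpart of Ciita, was 3.83 on dB/dB catalase-Tg 1 and 3.38 on dB/dB 2 but 2.31 to 2.55 on the other arrays.

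The other genes of the class II pathway were described from the list of 14. All were measured and 7 tested, none was called by limma in any comparison, and at most 1 had an unadjusted p under 0.05 in any of them. Of all probe sets, 1.64% to 12.6% had such a p, by comparison. When dB/dB catalase-Tg tubules were set against dB/dB tubules, 2 of the 7 differences were above 0, with a median of -0.094. H2-Oa, H2-Ob, H2-Eb2 and the costimulatory genes Cd80, Cd86 and Cd40 were never above 4, and H2-DMb2 was above 4 on dB/dB catalase-Tg 1 alone.

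Rfx5, Rfxank and Rfxap encode the RFX complex that binds the X box. Rfx5 measured 6.48, 6.26 and 6.47 in dB/dB catalase-Tg tubules, 6.70, 6.32 and 6.62 in dB/dB tubules, 6.50, 6.49 and 6.52 in catalase-Tg tubules, and 6.51, 6.46 and 6.49 in wild-type tubules, a range under 0.5 with no array apart. Rfxank measured 4.89, 4.89 and 4.98 in dB/dB catalase-Tg and 5.77, 5.75 and 5.58 in wild-type tubules, a difference of -0.78 without overlap (SE 0.22, limma adjusted p = 1). Of all probe sets 7.1% were lower without overlap in that comparison. Between them lay most values of dB/dB (5.53, 4.70 and 5.23) and catalase-Tg tubules (5.23, 5.64 and 5.29), and dB/dB overlapped dB/dB catalase-Tg. Rfxap was 6.87 on catalase-Tg 1 and 5.67 to 6.12 on the other arrays.

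The lysosomal genes of the pathway differed among themselves. Ctss, cathepsin S, which trims the invariant chain in antigen-presenting cells, measured 7.0, 7.05 and 5.61 in dB/dB catalase-Tg, 6.25, 7.18 and 6.51 in dB/dB, 6.13, 4.74 and 4.88 in catalase-Tg, and 6.53, 4.94 and 6.03 in wild-type tubules. Its difference between dB/dB catalase-Tg and catalase-Tg was 1.30 (SE 0.54, limma adjusted p = 0.704), and dB/dB catalase-Tg 1 was not apart for it. Its 3 highest arrays were those of the tested class II genes, dB/dB catalase-Tg 1 and 2 with dB/dB 2, and its lowest were catalase-Tg 2 and 3, the lowest for Cd74, H2-Aa and H2-Ab1 too. Lgmn, legumain, an endosomal protease abundant in proximal tubules, measured 9.15, 11.06 and 10.68 in dB/dB catalase-Tg, 9.83, 9.30 and 9.79 in dB/dB, 10.89, 11.36 and 11.41 in catalase-Tg, and 8.60, 11.58 and 10.74 in wild-type tubules. Lgmn was thus low on dB/dB catalase-Tg 1, where the class II genes were high. Ctsl, cathepsin L, was 12.22 there and 12.15 to 13.57 on the other arrays, and Ifi30, a thiol reductase of the endosome, was between 8.98 and 9.50 on all 12.

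Markers of the cells that could carry class II into a tubule preparation were read on the same arrays, as the mean over the tested genes of each list of their deviation from their 12-array mean. The class II score was 5.04, 0.59 and -0.72 in dB/dB catalase-Tg, -0.36, 1.51 and -0.89 in dB/dB, -1.01, -1.86 and -1.89 in catalase-Tg, and 0.02, -0.28 and -0.16 in wild-type tubules. The pan-leukocyte score (7 genes) was 0.72, 0.21 and -0.80 in dB/dB catalase-Tg, 0.34, 1.29 and 0.43 in dB/dB, 0.20, -1.09 and -1.14 in catalase-Tg, and 1.07, -1.06 and -0.17 in wild-type tubules. It was therefore highest on dB/dB 2 and wild type 1, and low on the same catalase-Tg arrays 2 and 3 as the class II genes. The macrophage score (5 genes) was 0.41, 0.31 and -0.70 in dB/dB catalase-Tg, -0.02, 0.77 and 0.58 in dB/dB, -0.05, -0.94 and -1.04 in catalase-Tg, and 1.31, -0.85 and 0.21 in wild-type tubules.

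None of the 7 pan-leukocyte and 5 macrophage genes that passed the filter was highest on dB/dB catalase-Tg 1. Only 1 dendritic cell gene, 1 B cell gene and no T cell gene passed, so for these types little can be read from the filtered genes. Among genes that did not pass, that array was highest for 1 of 9 macrophage, 2 of 10 dendritic cell, 3 of 8 B cell and 2 of 8 T cell genes, each of them below 4 there. The summed linear signal of the 6 class II genes was 262 to 16483 in dB/dB catalase-Tg, 234 to 1238 in dB/dB, 121 to 267 in catalase-Tg and 377 to 458 in wild-type tubules. That of the 12 pan-leukocyte genes was 323 to 678 in dB/dB catalase-Tg, 760 to 983 in dB/dB, 191 to 347 in catalase-Tg and 218 to 1296 in wild type. That of the 14 macrophage genes was 337 to 528 in dB/dB catalase-Tg, 545 to 829 in dB/dB, 323 to 525 in catalase-Tg and 325 to 840 in wild type. The leukocyte and macrophage sums on the dB/dB catalase-Tg arrays thus lay within the span of the dB/dB and wild-type arrays.

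Levels of the marker genes of the class II-rich cells differed by cell type. Of 11 dendritic cell genes measured 10 were never above 4, Itgax, Flt3 and Xcr1 among them, while Fscn1, the exception, was 6.19 on dB/dB catalase-Tg 1 and reached 7.36 on dB/dB 3. The dendritic cell list summed to 74.0 to 136 in dB/dB catalase-Tg, 122 to 228 in dB/dB, 58.6 to 72.4 in catalase-Tg and 67.2 to 220 in wild-type tubules. Of 9 B cell genes 8 were never above 4, with sums of 68.7 to 118 in dB/dB catalase-Tg, 60.9 to 64.0 in dB/dB, 64.1 to 71.2 in catalase-Tg and 65.8 to 68.9 in wild type; Ighm, the exception, was 6.29 on dB/dB catalase-Tg 2 and 4.38 to 4.90 elsewhere. None of the 8 T cell genes was above 4, with sums of 41.1 to 49.8 in dB/dB catalase-Tg, 41.0 to 41.7 in dB/dB, 41.8 to 42.9 in catalase-Tg and 41.1 to 41.6 in wild type. Named after their values were seen, Ms4a1 of the B cell list was 3.59 and Cd3e of the T cell list 3.53 on dB/dB catalase-Tg 1, each above its value on the other 11 arrays. Of the macrophage genes 8 of 14 were never above 4, Adgre1, C1qa and Cd68 among them, and 5 passed the filter. Of these, Mertk was 7.71 on dB/dB catalase-Tg 1 and 7.04 to 9.11 on the other arrays, Csf1r was 6.37 there and 5.61 to 7.34 elsewhere, and Lyz2 was 6.98 there and 3.36 to 7.99 elsewhere. These macrophage genes were thus present on most arrays and not highest on dB/dB catalase-Tg 1. The markers never above 4 are named here for that and not by their mean. The part of these cells in the class II values was not tested.

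Genes that mark the remaining kidney cell types also varied over the arrays. On dB/dB catalase-Tg 1, 5 of 12 endothelial, 3 of 5 collecting duct and 3 of 6 fibroblast and mural genes that passed the filter were at their highest, and none of the 6 podocyte, 8 loop of Henle and distal tubule or 14 proximal tubule genes was. These counts have no share of all probe sets beside them. The collecting duct score was 1.33 on that array, above its -0.84 to 1.25 on the other 11. The fibroblast and mural score was 1.88 there and -2.15 to 2.22 elsewhere, the podocyte score 1.03 there and -2.58 to 2.96 elsewhere, and the loop of Henle and distal tubule score 1.04 there and -2.31 to 1.72 elsewhere. The endothelial score (12 genes) was 1.55, -0.73 and -1.12 in dB/dB catalase-Tg, 1.27, 0.78 and 1.65 in dB/dB, -0.01, -1.70 and -1.53 in catalase-Tg, and 1.36, -1.32 and -0.20 in wild-type tubules. It was high on dB/dB catalase-Tg 1 and also on the dB/dB arrays and wild type 1, where the class II score was 1.51 or less. The proximal tubule score (14 genes) was -0.24, 0.58 and 0.60 in dB/dB catalase-Tg, -0.36, -0.48 and -0.25 in dB/dB, -0.08, 0.58 and 0.57 in catalase-Tg, and -1.79, 0.65 and 0.19 in wild-type tubules. The low class II scores of catalase-Tg 2 and 3 stood beside low endothelial and leukocyte scores and high proximal tubule scores, and wild type 2 had similar scores of these lists with a class II score of -0.28. The part of these cell types in the class II values was not tested.

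**Figure D4:**
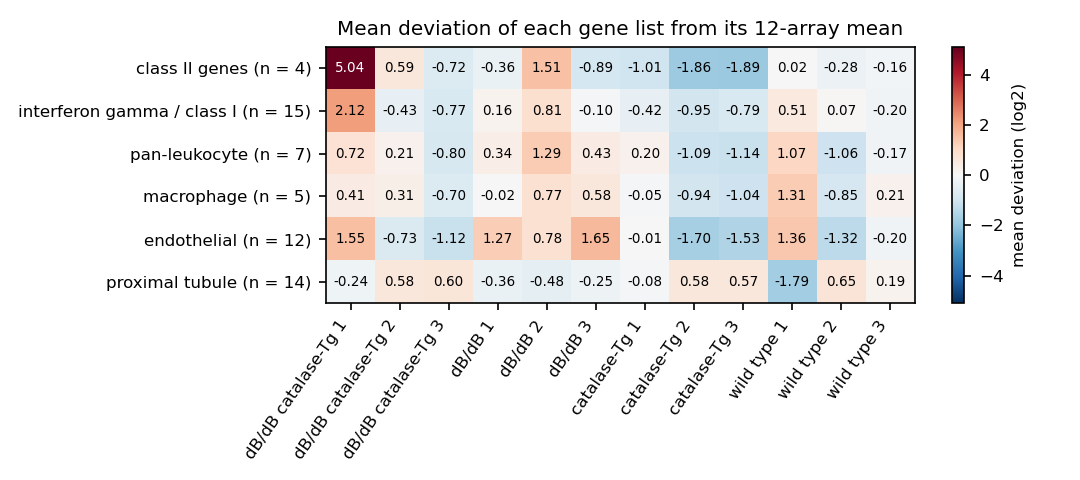
Mean deviation (log2) of the tested genes of 6 lists from their 12-array means, one row per list and one column per array, with the value printed in each cell. The class II row reaches 5.04 on dB/dB catalase-Tg 1, where the interferon gamma and class I row is 2.12 and the pan-leukocyte and macrophage rows are 0.72 and 0.41, below their values on wild type 1.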

How the data were processed

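RNA of 12 samples was hybridised to Affymetrix mouse arrays. What the authors deposited is a table of log2 values by probe set, made with GCRMA per the submitters' processing notes, which also name limma; versions are not given in the sources used here. Genes were named through the platform annotation. Of 45101 probe sets 64 controls were left out; of the rest 34945 had 1 symbol and 932 several. Probe sets above 4 on at least 3 of 12 arrays (18144) entered a limma fit (version 3.58.1, R 4.3.3; lmFit, eBayes, 1 mean per group, 8 residual degrees of freedom), with Benjamini-Hochberg adjustment over all of them and a threshold of 0.05. The fit was tested on simulated data. With 3 arrays a group, their number limits the precision.

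Named are the 7 genes, the class II pathway list, up to 4 of highest mean from each other list, and the 8 most alike. Exceptions, named with their values known, are H2-Ea, the genes of the gap ranking, Ms4a1 and Cd3e, and list genes named because they were never above 4. Members and lists were chosen with earlier results of these data known. Same-numbered arrays deviated together, with every r over 0.1, between dB/dB catalase-Tg and catalase-Tg (0.426 to 0.607), dB/dB catalase-Tg and wild type (0.265 to 0.705) and catalase-Tg and wild type (0.200 to 0.396). Arrays 2 and 3 crossed gave 0.241 to 0.584 there, within the range of the same-numbered ones. The arrays numbered 1 of those groups correlated with each other at 0.396 to 0.705. With arrays 2 and 3 of another of those groups they gave -0.630 to -0.256. Deviations were taken from group means, so where array 1 deviates most, arrays 2 and 3 both oppose it. Crossing arrays 2 and 3 therefore cannot decide if the samples are paired by number, and the labels state no pairing. Same-numbered dB/dB arrays gave -0.18 to 0.22 with catalase-Tg and -0.13 to 0.11 with dB/dB catalase-Tg. With wild type they gave 0.097 to 0.165, above arrays 2 and 3 crossed (-0.054 to -0.029). Alternatives covered filters, normalization, array weights, arrays left out, probe sets per gene, the spread estimate and a replicate block. Scores average each list's tested genes; sums add 2 to the power of each value over all measured genes.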

Additional observations from a re-analysis of the deposited data

How the results depend on the processing

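Over the 22 alternatives, 655 recomputed values were kept, counting both differences and numbers of class II genes called. A difference was kept if its direction and its side of the threshold held, and a number called if it did not move. Another 18 differences reversed direction, 1 difference passed the threshold and 2 numbers called moved. No class II gene was called in any comparison when any 1 array was left out. Array weights, whose estimation stopped before its convergence tolerance, moved 2 counts: 1 class II gene was called in dB/dB catalase-Tg against catalase-Tg (H2-Eb1, difference 2.29, limma adjusted p = 0.0274, with 883 probe sets called in all), and 2 in the test of any difference (H2-Aa, adjusted p = 0.0494, and H2-Eb1, 0.0122, with 7760 called in all). The adjusted p in dB/dB catalase-Tg against catalase-Tg ran from 0.0274 to 0.990 over the alternatives. Array weights also gave dB/dB minus wild type of -0.40 for Cd74 and -0.12 for H2-Aa. With dB/dB catalase-Tg 1, catalase-Tg 1 and wild type 1 all left out, dB/dB catalase-Tg minus dB/dB was -0.17 for Cd74, -0.26 for H2-Aa, -0.025 for H2-Ab1 and -0.16 for H2-Eb1, and dB/dB catalase-Tg minus wild type was -0.051 for Cd74 and -0.13 for H2-Ab1. With 1 array left out, dB/dB catalase-Tg minus dB/dB ran from -0.17 to 3.03 for Cd74, -0.26 to 2.73 for H2-Aa, -0.025 to 3.05 for H2-Ab1 and -0.16 to 2.08 for H2-Eb1, lowest without dB/dB catalase-Tg 1 and highest without dB/dB catalase-Tg 3. Over the same exclusions, dB/dB catalase-Tg minus wild type ran from -0.060 to 3.14 for Cd74 and -0.18 to 2.89 for H2-Ab1, and dB/dB minus wild type from -0.68 to 0.60 for Cd74, -0.41 to 0.82 for H2-Aa and -0.98 to 0.29 for H2-Ab1. The cause was not tested. With the replicate number as a block, 0 class II genes were called in all 7 tests, and 4 probe sets of the whole table in the test of any difference, against 7 without the block. That count was 745 without wild type 1 and 301 without wild type 2. The block changed no other call. The fit of only the groups of a contrast was not possible for the interaction or the test of any difference.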
